A study of Homo sapiens with 10 samples.

Results

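The genes described here are 40 genes of the G2/M transition and mitosis, measured in 2 non-small cell lung cancer lines after short exposure to estrogens and tamoxifen. They were grouped by function and not picked by a threshold on these values. The groups were cyclins and CDK1, mitotic kinases, the spindle checkpoint, the chromosomal passenger complex, and kinetochore, spindle and cytokinesis proteins. Further groups were chromosome structure, the anaphase-promoting complex with its substrates and mitotic exit, and FOXM1. Each gene was read from its brightest single-gene probe set by mean log2(intensity + 16) over the 10 arrays, and other probe sets served as a check. All 40 had such a probe set among 19775 genes represented, and all 40 were among the 12979 genes tested. A gene was tested if its mean log2 level reached the median of the array's probe sets, an intensity of 19.7. The lowest mean of any of the 40 in either line was 28.2, for INCENP in A549, so none of them entered through 1 line alone.

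The study recorded gene expression with Affymetrix human expression arrays in HTB-182, a squamous lung carcinoma line that the series title calls H520, and in A549, a lung adenocarcinoma line. Cultures spent 4 h in 10% charcoal-stripped serum, which is depleted of steroid hormones, and were then exposed for 3 h in the same serum. The 5 exposures were ethanol vehicle at 0.1%, estradiol at 1 µM, estradiol at 1 µM with tamoxifen at 10 µM, estradiol-BSA at 1 µM, and estradiol-BSA at 1 µM with tamoxifen at 10 µM. Estradiol-BSA is estradiol coupled to albumin, commonly used to favour signalling from the cell surface, and tamoxifen is a selective estrogen receptor modulator. There was 1 array for each line and exposure, no array had tamoxifen without an estrogen, and each line stands for 1 tumour. For the arrays with estradiol plus tamoxifen the title mentions tamoxifen alone, and the grouping follows the source descriptions. With no replicate cultures stated, the p-values measure only how much these 10 arrays vary, which may be technical variation.

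The 5 A549 arrays did not vary evenly. In the A549 vehicle array, 263 of the tested genes differed at least 2-fold from their average in the remaining A549 arrays, 249 of them lower, against 23 to 35 genes in the other A549 arrays and 0 to 3 in the HTB-182 arrays. Among the 40 mitosis genes, 7 lay at least 1.5-fold and 1 at least 2-fold from that mean in this array, where 11.3% of all genes lay at least 1.5-fold away. The ratio of 3′ to 5′ control probe sets, a sign of RNA integrity, was 3.27 for ACTB and 1.43 for GAPDH there, against 2.66 to 3.57 and 1.45 to 1.61 in the other A549 arrays. In the HTB-182 arrays the ratios ran from 3.7 to 6.1 for ACTB, above every A549 array, and from 1.46 to 1.74 for GAPDH. Both were highest with estradiol-BSA plus tamoxifen. The part of this in the line difference was not tested. Every comparison with vehicle in A549 rests on the A549 vehicle array. Counts for changes common to both lines are given with and without it, while differences from vehicle within A549 cannot be given without it. Among cell type markers, SOX2 read 4152 on average in HTB-182 against 135 in A549. By the line test described below, 9 of 12 tested alveolar and adenocarcinoma markers were higher in A549, against 33.6% of all genes. KRT7 (3411 against 18.1) and AGR2 entered the test through A549 alone, and 7 of the other 10 were higher. ABCA3 was lower in A549 (-0.47 on the log2 scale), and the surfactant genes SFTPB and SFTPC were not called. Of 6 tested squamous markers, 3 were lower in A549, SOX2 among them, and PERP was higher (0.34). The squamous keratins KRT5 (22.1 in HTB-182) and KRT14 (8.43) and the adenocarcinoma factor NKX2-1 (17.0 in A549) were near or below the level required for testing. Among 8 blood and endothelial markers with a probe set, PTPRC averaged 7.29 in HTB-182 against 8.80 in A549, HBB 65.2 against 64.9, and CD14 10.6 against 82.2.

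Cells enter mitosis when CDK1, bound to cyclin A or B, is switched on by CDC25 phosphatases and the Polo and Aurora kinases. The spindle checkpoint holds the anaphase-promoting complex (APC/C) until every kinetochore is attached, after which CDC20 directs the destruction of securin and cyclin B and the cell divides. Transcripts of this machinery rise in late S and G2 phase through FOXM1, B-Myb and the MuvB complex, which acts at promoters with a cell cycle genes homology region (CHR), usually beside CCAAT boxes bound by NF-Y. In a bulk culture, a lower level of these transcripts can be fewer cells in G2 and mitosis or less RNA per such cell, and these cannot be told apart.

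Promoter sequence was the property of the genes that the choice of members had not used. In the RefSeq promoter table (build GRCh38.p14, from 250 bases before to 50 after each start), 34 of the 40 genes had an entry, with 44 windows in all. AURKA, BIRC5, FOXM1, TPX2, TTK and UBE2C are only named here. The CHR core TTTGAA, searched on both strands, stood in 27 of the 44 windows (61.4%), which belonged to 24 genes, against 15.2% of all 35116 windows in the table. CCAAT, searched on both strands, stood in 34 of the 44 (77.3%; 29 genes) against 34.6% of all, and both together in 23 (52.3%; 21 genes) against 5.90%. Windows of 1 gene can overlap and hold the same site, as for CDC25C, so they are not separate observations. The shares over all promoters are by window and not by gene. A match is a description of the letters and not a measured binding site, and the 2 motifs can overlap, as in CDCA8. The 120 bases just before the start are shown for 8 genes on the plus strand, with TTTGAA and CCAAT on either strand in capitals. The first 6 carry both motifs, and NCAPG and KIF2C are shown because they had the largest drops in A549. CCNB2 lies at chr15:59105026-59105145, PLK1 at chr16:23678769-23678888, CDC20 at chr1:43358861-43358980 and CDCA8 at chr1:37692396-37692515. HMMR lies at chr5:163460512-163460631, KIF4A at chrX:70289984-70290103, NCAPG at chr4:17810859-17810978 and KIF2C at chr1:44739717-44739836.
CCNB2: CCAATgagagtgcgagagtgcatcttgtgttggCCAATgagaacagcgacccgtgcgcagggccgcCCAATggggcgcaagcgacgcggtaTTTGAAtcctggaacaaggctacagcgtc
PLK1: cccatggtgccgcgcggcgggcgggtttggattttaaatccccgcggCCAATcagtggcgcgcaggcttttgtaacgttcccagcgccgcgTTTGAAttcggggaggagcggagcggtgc
CDC20: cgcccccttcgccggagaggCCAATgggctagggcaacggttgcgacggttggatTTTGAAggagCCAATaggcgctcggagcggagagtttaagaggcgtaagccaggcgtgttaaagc
CDCA8: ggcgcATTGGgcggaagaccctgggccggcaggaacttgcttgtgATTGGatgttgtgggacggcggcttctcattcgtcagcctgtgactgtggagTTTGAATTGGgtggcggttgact
HMMR: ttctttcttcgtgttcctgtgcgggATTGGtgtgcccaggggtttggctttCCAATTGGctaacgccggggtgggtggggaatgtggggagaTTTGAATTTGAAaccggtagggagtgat
KIF4A: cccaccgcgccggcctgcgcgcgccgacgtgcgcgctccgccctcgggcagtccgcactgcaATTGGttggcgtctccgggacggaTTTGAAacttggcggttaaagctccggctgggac
NCAPG: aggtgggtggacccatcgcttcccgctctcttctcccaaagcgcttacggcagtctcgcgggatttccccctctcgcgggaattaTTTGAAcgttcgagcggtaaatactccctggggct
KIF2C: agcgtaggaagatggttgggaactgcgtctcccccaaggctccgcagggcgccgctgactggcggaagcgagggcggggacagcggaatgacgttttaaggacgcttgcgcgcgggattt
TTTGAA stands upstream of NCAPG without CCAAT, and in the 120 bases shown for KIF2C neither motif is present. The median line difference, described next, was -1.17 on the log2 scale for the 24 genes with TTTGAA and -0.99 for the 10 without it, a group that holds both KIF2C and CDC25B.

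The mitosis genes as a group were lower in A549 than in HTB-182. Of the 40 genes, 36 were lower and 2 were higher in A549 (limma, Benjamini-Hochberg adjusted p under 0.05 over all genes tested), while AURKA and CENPA did not pass. Over all 12979 genes, 32% were called lower and 33.6% higher, so nearly balanced calls for the transcriptome stood beside a nearly one-sided split in the list. The median log2 difference was -1.14 over the 40 genes and 0.03 over all genes, with a range from -2.84 for KIF2C to 2.21 for CDC25B. For 33 of the 40, all 5 A549 arrays lay below all 5 HTB-182 arrays, against 28.2% of all genes, and only CDC25B lay above in all (30.3%). The arrays of the lines overlapped for AURKA, AURKB, CENPA, ANLN, TOP2A and UBE2C. Levels were lower by more than 1 log2 unit for 23 of the 40, against 11.1% of all genes, by more than 1.5 units for 13, against 5.63%, and by more than 2 units for 5, against 3.31%. Without both vehicle arrays, 35 were lower and 2 higher with a median of -1.13.

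**Figure D1:**
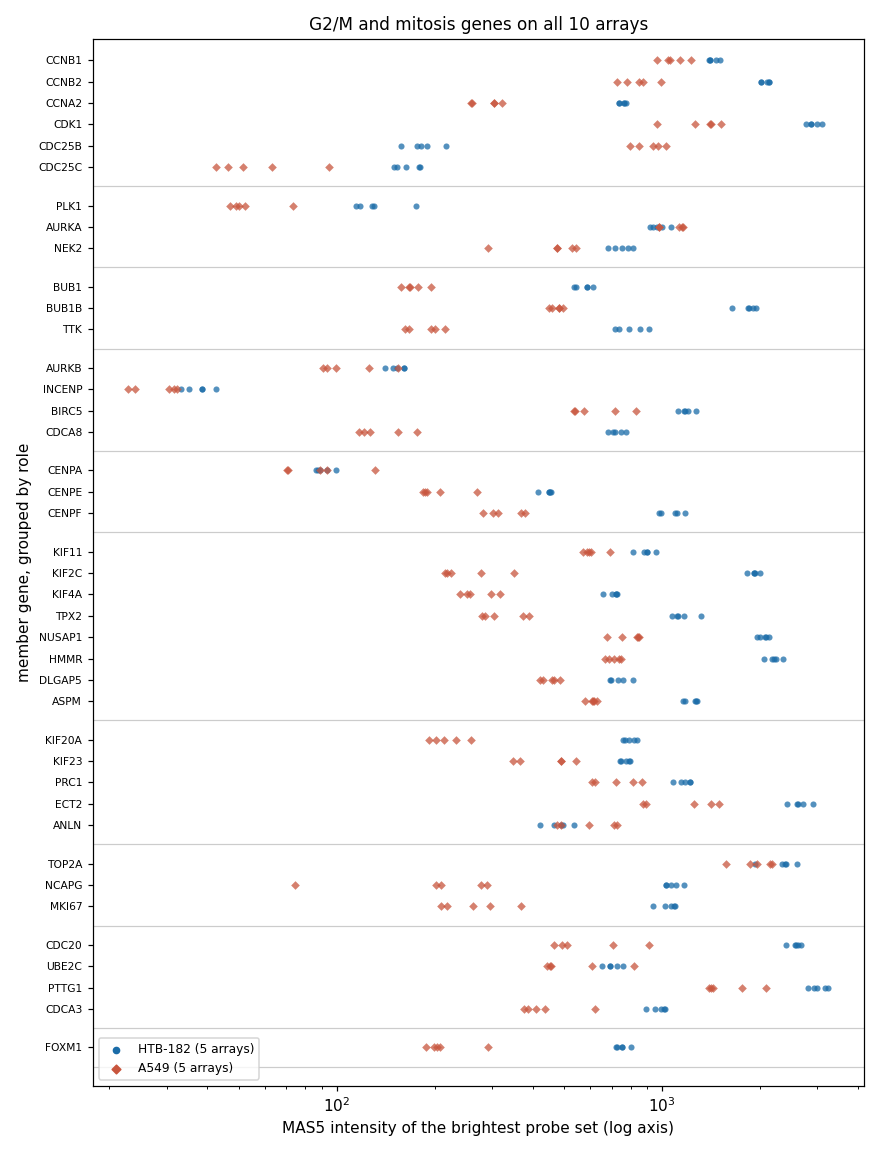
Intensity of the brightest probe set of each of the 40 mitosis genes (log axis) on the 10 arrays, 1 point per array, 5 for HTB-182 (circles) and 5 for A549 (diamonds), with genes grouped by role. The A549 points lie left of all HTB-182 points for 33 genes and right of them for CDC25B, the groups overlap for 6 genes, and the lone low NCAPG diamond is the vehicle array at 74.5.

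The cyclin and CDK1 engine was lower in A549 for 5 of its 6 genes. CDK1, the kinase that drives entry into mitosis, read 2863, 2775, 2866, 2999 and 3106 in HTB-182 and 966, 1266, 1415, 1515 and 1406 in A549, in the order vehicle, estradiol, estradiol plus tamoxifen, estradiol-BSA and estradiol-BSA plus tamoxifen, which is kept below. Every A549 array lay below every HTB-182 array, and within A549 the vehicle array was lowest. The difference was -1.16 ± 0.08 on the log2 scale (SE, 5 pairs; limma adjusted p = 2.6e-07), a 2.23-fold drop. CCNB1, the main cyclin B, differed much less, at 1389, 1406, 1403, 1508 and 1463 in HTB-182 and 1228, 1134, 967, 1039 and 1057 in A549. That was -0.40 ± 0.07 (limma adjusted p = 0.000598), again with no overlap in this probe set. Another CCNB1 probe set above the level required for testing averaged 790 in HTB-182 and 773 in A549. Its difference was -0.04, with overlapping arrays. CCNB2, a relative of CCNB1, was lower by a larger margin, 2.45-fold, and CCNA2, which acts from S phase to early mitosis, was 2.53-fold lower.

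The CDC25 phosphatases, which remove the inhibitory phosphates from CDK1, went opposite ways. CDC25B, regarded as the starter phosphatase at the G2/M boundary, read 182, 158, 216, 177 and 189.9 in HTB-182 and 1024, 968, 795, 849 and 936 in A549. Every A549 array exceeded every HTB-182 array by a wide gap, and the difference was 2.21 ± 0.11 (SE, 5 pairs; limma adjusted p = 1.1e-08), or 4.64-fold. CDC25C read 149.9, 178, 180.3, 153 and 163 in HTB-182 and 94.96, 63.1, 51.6, 42.6 and 46.3 in A549. It was lower in A549 in every array, by 2.45-fold, and its A549 vehicle array stood above the 4 treated ones.

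Among the mitotic kinases, PLK1 and NEK2 were lower in A549 and AURKA was not called. PLK1, the Polo kinase of mitotic entry and spindle assembly, read 176, 114, 118, 129 and 129.99 in HTB-182 and 52.2, 73.4, 47.0, 50.2 and 49.1 in A549. The difference was -1.08 ± 0.13 (limma adjusted p = 2.2e-05), with the HTB-182 vehicle array the highest of all 10. AURKA, the kinase of centrosome maturation, read 918, 940.3, 961, 1062 and 999 in HTB-182 and 1155, 1130.1, 977, 975 and 1151 in A549. The ranges overlapped, and the difference of 0.14 had a 95% interval from -0.04 to 0.32 (limma adjusted p = 0.164). NEK2, a kinase of centrosome separation, was 1.63-fold lower in A549 with no overlap.

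The spindle checkpoint kinases had the largest median drop of the roles with several genes, -1.92 over 3 genes, nearly equal to the -1.91 over the 3 genes of chromosome structure. BUB1B, the checkpoint protein BubR1, read between 1635 and 1946 in HTB-182 and between 450.05 and 497 in A549, a difference of -1.92 ± 0.07 (SE, 5 pairs; limma adjusted p = 1.2e-09). TTK, the kinase MPS1 that starts the checkpoint signal, read 738, 718, 912, 794 and 857 in HTB-182 and 162, 166, 195, 215 and 201 in A549, 4.02-fold lower. BUB1 was 3.12-fold lower. In all 3 the A549 arrays lay below every HTB-182 array.

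The chromosomal passenger complex, which corrects faulty attachments and later guides cytokinesis, was unevenly lower. CDCA8 (Borealin) read 776, 682, 705, 714 and 747 in HTB-182 and 176, 154, 126, 117 and 122 in A549, a difference of -2.27 ± 0.10 (SE, 5 pairs; limma adjusted p = 5.6e-09). BIRC5 (Survivin) was 1.86-fold lower in its brightest probe set, a log2 difference of -0.89, while its other probe sets were at 0.06, -0.15 and -0.41. The catalytic subunit AURKB differed by -0.41 (limma adjusted p = 0.0125) and the scaffold INCENP by -0.28 (adjusted p = 0.0167), and the AURKB arrays of the lines overlapped because the A549 vehicle array, at 154, lay within the HTB-182 range of 141 to 161. Both calls were lost when some single arrays were left out. The 4 subunits thus differed from 1.21-fold to 4.82-fold.

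At the centromere, CENPF and CENPE were lower and CENPA was not called. CENPF, a large kinetochore protein, was 3.17-fold lower and the motor CENPE 2.08-fold lower. CENPA, the histone variant that marks centromeres, read 99.6, 87.5, 93.4, 89.1 and 86.3 in HTB-182 and 131, 89.0, 93.3, 70.1 and 70.7 in A549. Its A549 arrays ran both above and below those of HTB-182, and the difference of -0.03 had a 95% interval from -0.29 to 0.22 (limma adjusted p = 0.83).

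All 8 genes of spindle motors and microtubule proteins were lower in A549, with a median of -1.35. KIF2C, the microtubule depolymerase MCAK, read 1820, 1997, 1936, 1912 and 1909 in HTB-182 and 350.4, 278, 218, 215 and 225 in A549. This was the largest drop among the 40 genes, -2.84 ± 0.11 (SE, 5 pairs; limma adjusted p = 1.7e-09), or 7.18-fold, and no array came near the other line. TPX2, the activator of Aurora A on the spindle, was 3.45-fold lower although AURKA itself was not called. HMMR, a spindle assembly protein, was 3.07-fold lower, NUSAP1 2.57-fold and the chromokinesin KIF4A 2.52-fold. KIF11, the motor Eg5 that separates the poles, was 1.45-fold lower and DLGAP5 1.61-fold.

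Of 5 genes of the central spindle and cytokinesis, 4 were lower and ANLN was higher. KIF20A, a kinesin of the midzone, was 3.46-fold lower, from 760 to 837 in HTB-182 to between 191 and 259 in A549. ECT2, the exchange factor that activates RhoA for furrowing, read 2592, 2413, 2624, 2707 and 2908 in HTB-182 and 893, 872, 1254, 1498 and 1416 in A549, a 2.27-fold drop. KIF23 and PRC1, which bundle midzone microtubules, were 1.72-fold and 1.61-fold lower. ANLN, the furrow scaffold anillin, read 488, 422, 537, 464 and 497 in HTB-182 and 489.9, 476, 597, 727 and 712 in A549. Its difference of 0.29 ± 0.11 (SE, 5 pairs; limma adjusted p = 0.0304) came from overlapping arrays, and with arrays centred on their medians the adjusted p was 0.065.

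Genes of chromosome structure separated into a pair of large drops and a small one. NCAPG, a condensin subunit, read 1026, 1027, 1105, 1067 and 1170.4 in HTB-182 and 74.5, 208, 202, 278 and 289.9 in A549, a difference of -2.39 ± 0.20 (SE, 5 pairs; limma adjusted p = 9.3e-07). The A549 vehicle array was far below the other A549 arrays, and all 5 were far below HTB-182. MKI67, the proliferation marker Ki-67 that coats mitotic chromosomes, read 1090.1, 1066, 1096, 1019 and 936 in HTB-182 and 295, 369.6, 209, 219 and 262 in A549, or 3.75-fold lower. TOP2A, which untangles sister chromatids, read 2405, 2387, 2593, 2338 and 1931 in HTB-182 and 1570, 2144, 1963, 1864 and 2179 in A549. Its difference of -0.26 ± 0.10 (limma adjusted p = 0.0317) came from overlapping arrays and did not pass the threshold without both vehicle arrays.

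The group of the APC/C, its substrates and mitotic exit was lower for 4 of 4 genes. CDC20, the APC/C activator restrained by the checkpoint, read 2555, 2677, 2407, 2586 and 2622 in HTB-182 and 913, 704, 466, 508 and 492 in A549. The difference was -2.08 ± 0.12 (SE, 5 pairs; limma adjusted p = 5.5e-08), or 4.22-fold, with the A549 vehicle array the highest of its line. UBE2C, the ubiquitin-conjugating enzyme of the APC/C, read 690, 694, 655, 760 and 727 in HTB-182 and 817, 607, 444, 453 and 456 in A549. Its A549 vehicle array exceeded every HTB-182 array while the 4 treated A549 arrays lay below them, and the 1.30-fold drop had an adjusted p of 0.0271 in limma. PTTG1 (securin) was 1.89-fold and CDCA3 2.17-fold lower.

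FOXM1, the transcription factor of the G2/M programme, read 751, 724, 753, 725 and 801 in HTB-182 and 292, 207, 188, 198 and 203 in A549. The difference was -1.73 ± 0.10 (SE, 5 pairs; limma adjusted p = 6.5e-08), or 3.32-fold, and the A549 vehicle array stood above the treated ones. Of the 40 genes, 33 kept the same call for the line difference under every alternative run, and the other 7 were ANLN, AURKA, AURKB, INCENP, TOP2A and UBE2C, whose call changed, and CENPA, whose difference near 0 changed sign.

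**Figure D2:**
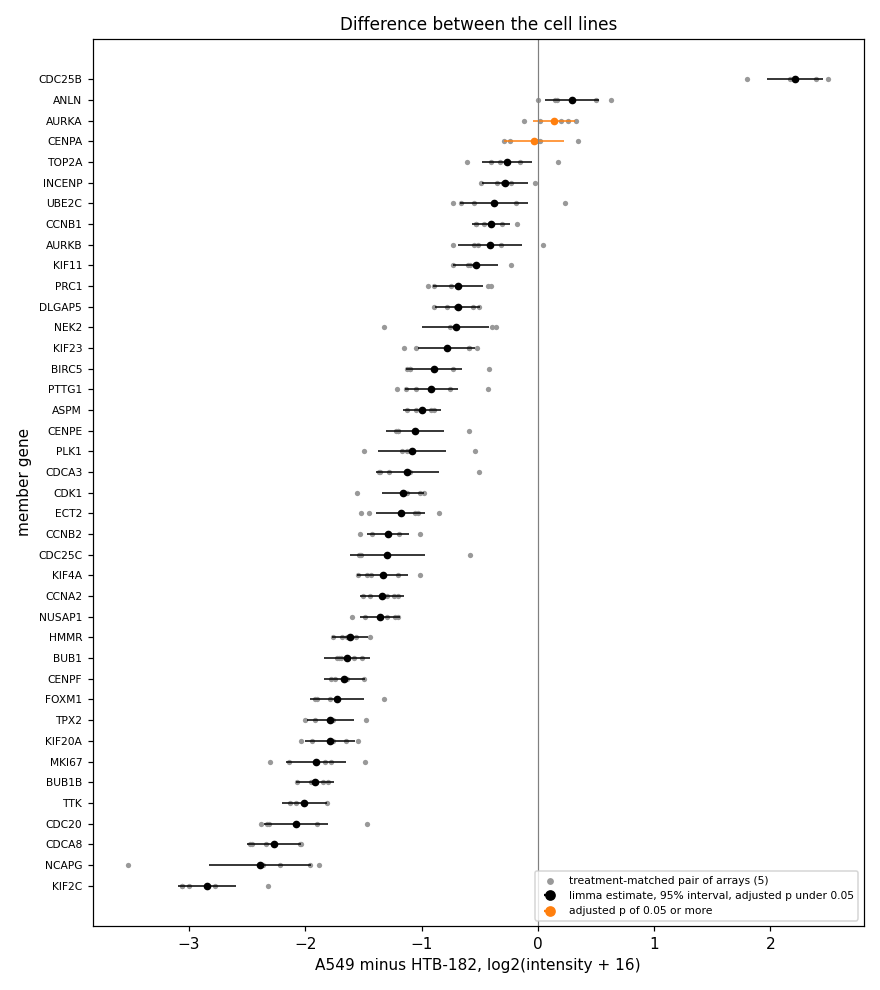
Difference between the lines for each mitosis gene, A549 minus HTB-182, on the log2(intensity + 16) scale, ordered by size; grey points are the 5 exposure-matched pairs of arrays and black or orange points the limma estimates with 95% intervals, orange where the adjusted p was not under 0.05. Estimates lie left of 0 for 36 genes that passed the test and right of 0 for CDC25B and ANLN, and the intervals of AURKA and CENPA cross 0.

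Other genes of the same pathway, from lists of known function, were mostly lower in A549 as well. Of 104 other mitosis genes tested, 79 were lower and 7 higher, with a median of -0.87. Over all genes, 32% were called lower and 33.6% higher, and each list below is to be read beside these shares. The kinetochore and checkpoint list had 27 of 32 lower and 0 higher, led by MIS18A (11.5-fold), which helps load CENPA, and by NDC80 (4.79-fold), SPC25 (4.37-fold) and SPC24, subunits of the complex that grips microtubules. Of 25 other spindle and cytokinesis genes, 21 were lower, led by DEPDC1B (4.63-fold), KNSTRN, KIF15 and KIF22, and FAM83D was higher. Condensin, cohesin and separase genes were lower for 13 of 16, among them NCAPD3 (5.85-fold), RAD21 (3.15-fold), ESPL1 and NCAPH, with SMC1A higher. The list of APC/C subunits was the mixed one, with 8 of 16 lower, 4 higher and a median of -0.20. There CDC16 was 2.38-fold higher, CDC23 2.10-fold lower, the inhibitor FBXO5 2.04-fold lower, and ANAPC10 lower. Other regulators of entry were lower for 10 of 15, led by MELK (3.27-fold), CCNF, ENSA and CDC25A, with ARPP19 higher.

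The other probe sets of the same genes mostly gave the same direction between the lines, several of them with a smaller difference. For 22 of the 40 genes there were 38 further single-gene probe sets, and 33 of the 38 had the same direction as the brightest one. Of the 28 above the level required for testing, 26 did, and none of the 38 had an opposite value beyond 0.3 log2. With all probe sets of a gene averaged, the median over the 40 genes was -0.85 in place of -1.14. The treatment responses in A549 were less alike between probe sets. The mean of the 4 treated A549 arrays minus vehicle had the same direction in 20 of the 28. For CDK1 it was 0.53 in the brightest probe set and -0.27, -0.35 and -0.07 in the others, for NEK2 0.76 and -0.40, and for CDCA3 -0.62 and 0.65. CCNA2 (0.19 and -0.61), CENPF (-0.21 and 0.34) and CCNB1 (-0.23 and 0.31) were opposite too, so the sign of these responses depended on which probe set was read.

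**Figure D3:**
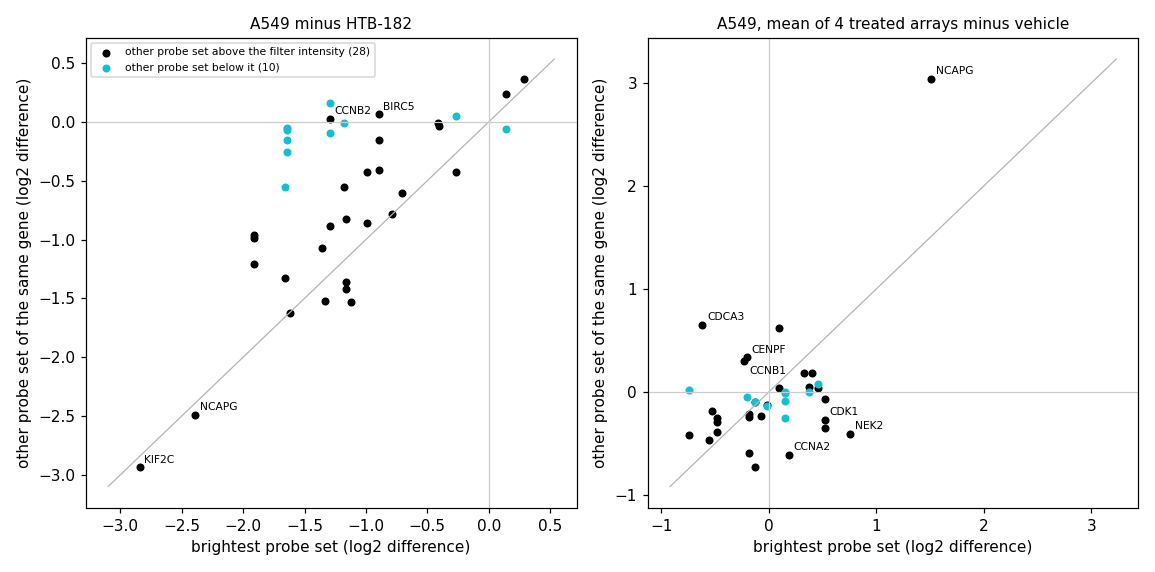
Other single-gene probe sets (vertical axis) against the brightest probe set of the same mitosis gene (horizontal axis), as log2 differences for A549 minus HTB-182 (left) and for the mean of the 4 treated A549 arrays minus the A549 vehicle array (right); black points are the 28 above the intensity required for testing, and the grey diagonal marks equal values. On the left 33 of 38 points have the same sign on both axes, on the right 8 of the 28 black points have opposite signs.

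No member passed the test for an effect of tamoxifen common to the lines. The comparison took each tamoxifen array minus its estrogen partner over 4 pairs, and 0 of 40 genes were called, as were 0 of 12979 genes (0%; limma, Benjamini-Hochberg). At an unadjusted p under 0.05 there were 0 of the 40 and 151 genes in all (1.16%). The median over the 40 was -0.01, 17 of them lay above 0, and 0 moved the same way in all 4 pairs, against 7.36% of all genes upward and 5.19% downward. The estimates ran from -0.19 for CDC20 to 0.18. The 95% interval of a member reached 1.18-fold to either side of its estimate at the median and 1.41-fold at most. These intervals are not adjusted for the number of genes tested, so shared effects of that size or somewhat larger could go uncalled here. The difference in tamoxifen effect between the lines gave 0 members and 0 genes (0%; limma, adjusted), with 0 members and 260 genes at an unadjusted p under 0.05. CDC20 had the lowest value there, -0.46 with a 95% interval from -0.93 to 0.01. Whether tamoxifen acted differently on estradiol and on estradiol-BSA was compared after the values were seen, with 0 members and 0 genes called (0%), and 0 members and 116 genes at an unadjusted p under 0.05.

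Against vehicle, no member passed the test for a change common to both lines under any of the 4 exposures. These comparisons rest on 2 pairs each and share the vehicle arrays, so they are not independent, and each called 0 of 40 and 0 of 12979 genes (0%; limma, adjusted). At an unadjusted p under 0.05 there were 0 of the 40 and 581 genes in all for estradiol, 5 and 840 for estradiol-BSA, 2 and 594 for estradiol plus tamoxifen, and 4 and 962 for estradiol-BSA plus tamoxifen. The mean of both estrogens against vehicle also called 0 of 40 and 0 genes (0%), with 3 and 829 at an unadjusted p under 0.05. The members' medians, -0.06, -0.09, -0.14 and -0.05 in the same order, lay beside medians of -0.06, -0.07, -0.07 and -0.06 over all genes. The 95% interval reached 1.27-fold at the median member and 1.62-fold at most.

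The members of largest mean difference among those with 1 sign in both lines are given for each exposure, none of them past the test. For estradiol they were NCAPG (0.66), NEK2 (0.39) and PRC1 (0.10) upward, and CENPA (-0.32), FOXM1 (-0.26), INCENP (-0.22) and CDCA8 (-0.18) downward, with limma adjusted p from 0.913 to 0.944. For estradiol-BSA they were NCAPG (0.88), ECT2 (0.40), CDK1 (0.35) and TTK (0.24), and CENPA (-0.46), CDCA8 (-0.32), CENPF (-0.31) and FOXM1 (-0.29), all at an adjusted p of 0.665. With tamoxifen added to estradiol they were NCAPG (0.69), NEK2 (0.37), CDK1 (0.27) and TTK (0.27), and CDC20 (-0.52), UBE2C (-0.47), AURKB (-0.35) and PLK1 (-0.32), all at an adjusted p of 0.786. With tamoxifen added to estradiol-BSA they were NCAPG (0.97), ECT2 (0.41), CDK1 (0.33) and ANLN (0.27), and CENPA (-0.47), TPX2 (-0.29), CDCA8 (-0.27) and CENPF (-0.26), with limma adjusted p from 0.653 to 0.664. For both estrogens averaged, 5 members had 1 sign in all pairs, CDC25B (-0.14), NCAPG (0.77), CENPA (-0.39), FOXM1 (-0.27) and CDCA8 (-0.25), with limma adjusted p from 0.72 to 0.764. Over all genes, 6.90% lay above 0 in all these pairs and 15.5% below. The estradiol difference of NCAPG was 0.0008 within HTB-182 against 1.31 within A549, so its mean came almost wholly from A549.

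The conjugate differs from estradiol by its coupling to albumin, and at the matched dose and time no member passed the test between these compounds, the only pair compared. Estradiol-BSA against estradiol, over 2 pairs of arrays without tamoxifen, called 0 of 40 and 0 of 12979 genes (0%; limma, adjusted), with 2 and 454 at an unadjusted p under 0.05. The median was -0.04 over the 40, and the interval of a member reached 1.27-fold at the median and 1.62-fold at most, which does not show that the compounds act alike. Of the 40 members, 8 lay above 0 in both lines and 8 below 0 in both, against 27.3% and 18.1% of all genes. The 4 of largest mean difference in each direction were ECT2 (0.47), ANLN (0.36), KIF23 (0.29) and TTK (0.24) upward and MKI67 (-0.39), CDC25C (-0.32), CENPF (-0.28) and CDC20 (-0.25) downward, with limma adjusted p of 0.993. For MKI67 the 95% interval ran from -0.80 to 0.02, and for NCAPG from -0.47 to 0.92.

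Within HTB-182 the mitosis genes were nearly flat. Single arrays were compared here, with no replicate and no test. The median SD of a member over the 5 HTB-182 arrays was 0.08 on the log2 scale, beside 0.09 over all genes, and 0 of 40 members reached 1.5-fold in any of the 8 differences between its arrays. The shares of all genes at least 1.5-fold higher and lower than vehicle were 0.162% and 0.262% with estradiol, 0.208% and 0.2% with estradiol plus tamoxifen, 0.239% and 0.185% with estradiol-BSA, and 0.262% and 0.524% with estradiol-BSA plus tamoxifen. They were 0.139% and 0.123% for tamoxifen added to estradiol, 0.17% and 0.354% for tamoxifen added to estradiol-BSA, 0.162% and 0.116% for estradiol-BSA against estradiol, and 0.254% and 0.362% for the same with tamoxifen in both. The nearest member was PLK1, at -0.56 for estradiol minus vehicle.

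Within A549 the same genes varied more, with a median SD of 0.21 beside 0.18 over all genes and a maximum of 0.71 for NCAPG. With estradiol, 2 members were at least 1.5-fold above vehicle, NCAPG and NEK2, and 0 below (background 4.65% and 4.04% of all genes). With estradiol plus tamoxifen, the same genes were above and 8 were below, namely CDC20, UBE2C, CDC25C, CDCA3, KIF2C, AURKB, BIRC5 and FOXM1 (background 4.77% and 7.87%). With estradiol-BSA, NCAPG, NEK2, ECT2, CDK1 and KIF23 were above and 7 were below, among them CDC25C, UBE2C, CDC20 and CENPA (background 5.82% and 12.1%). With estradiol-BSA plus tamoxifen, NCAPG, NEK2 and ECT2 were above and 7 were below, led by CDC20 (background 6.05% and 12.3%). The median of all genes in these 4 differences was itself below 0, from -0.11 to -0.19, and with arrays centred on their medians the counts above and below were 2 and 0, 3 and 4, 6 and 4, and 7 and 4. Another ECT2 probe set above the level for testing lay below vehicle, at -0.21 with estradiol-BSA and -0.12 with estradiol-BSA plus tamoxifen.

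Members lay on both sides of vehicle in A549. In all 4 treated A549 arrays, 19 of the 40 lay below the vehicle array, against 49.5% of all genes, and 10 lay above it, against 17.2%, so the members' shares lay near those of all genes or a little above. The 19 included CDC20, UBE2C, PTTG1 and CDCA3 of the APC/C and mitotic exit group, with FOXM1, CCNB1, AURKA, AURKB, BIRC5 and KIF2C. The 10 were ASPM, BUB1, CCNA2, CDK1, KIF11, KIF23, NCAPG, NEK2, TOP2A and TTK. These are the brightest probe sets, and for some genes the side depended on the probe set. Other probe sets above the level for testing lay below vehicle in all 4 for NEK2 (-0.62 to -0.07), CCNA2 (-0.78 to -0.39) and CDK1. For CCNB1 (0.12 to 0.42) and CDCA3 (0.48 to 0.94), another such probe set lay above vehicle in all 4. The log2 difference of CDC20 from vehicle was -0.37, -0.95, -0.83 and -0.87 with estradiol, estradiol plus tamoxifen, estradiol-BSA and estradiol-BSA plus tamoxifen. That of NCAPG was 1.31, 1.27, 1.70 and 1.76 in the same order. In HTB-182 the counts were 9 below (background 15%) and 11 above (27.4%).

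**Figure D4:**
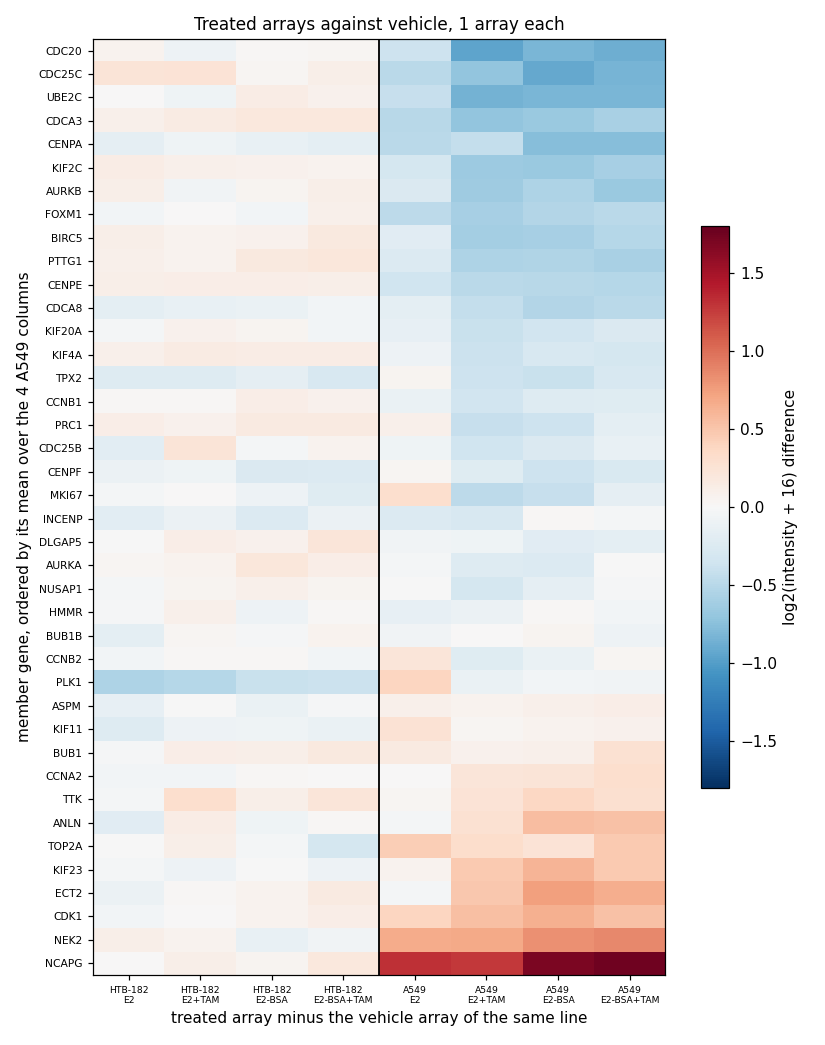
Heat map of the log2(intensity + 16) difference of each treated array from the vehicle array of its own line, 40 mitosis genes by 4 exposures in each of 2 lines (E2, estradiol; TAM, tamoxifen), ordered by the mean over the A549 columns; blue is lower and red higher than vehicle, and each cell is 1 array against another with no replicate. HTB-182 columns are pale except for PLK1, at -0.56 with estradiol, while A549 columns run from -0.95 for CDC20 to 1.76 for NCAPG.

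Differences that did not use the A549 vehicle array were smaller. With tamoxifen added to estradiol in A549, 30 of the 40 lay below 0 with a median of -0.22, beside -0.05 over all genes, and MKI67, at -0.77, was the only member to reach 1.5-fold (background 1.83% higher and 2.08% lower). CDC20, at -0.58, lay just short of it. With tamoxifen added to estradiol-BSA, 0 members reached 1.5-fold (background 0.462% and 0.216%) and the median was 0.03. In estradiol-BSA against estradiol, ECT2 (0.77) and ANLN (0.59) were at least 1.5-fold higher and MKI67 (-0.72) lower (background 2.64% and 3.24%), and between the arrays that had tamoxifen too, 0 members reached it (background 1% and 0.493%). Another ECT2 probe set above the level for testing went the opposite way in estradiol-BSA against estradiol, at -0.54, and that of ANLN was at 0.10. The 3 other MKI67 probe sets lay between -0.49 and -0.39. The estradiol plus tamoxifen array was the lowest A549 array for 15 of the 40 genes, against 13.7% of all genes, and the highest for 0, against 11.1%.

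NCAPG was the only member whose response to estrogen differed between the lines by test. The estrogen response, the mean of estradiol and estradiol-BSA minus vehicle, was higher in A549 than in HTB-182 by 1.48 ± 0.27 on the log2 scale (SE; 95% interval 0.93 to 2.03; limma adjusted p = 0.000312). Over all genes 2.23% were called higher and 0.616% lower, so 1 of 40 is near the background. The model has 2 residual degrees of freedom and meets each vehicle array exactly, so the A549 vehicle reading of 74.5 enters in full, and no fit of this term is possible without it. The other NCAPG probe set read 7.64 in the A549 vehicle array and 189.7, 166, 179 and 181 in the treated ones, against 669 to 775 in HTB-182, so both probe sets were low in that array. At an unadjusted p under 0.05 there were 11 of the 40 and 2077 genes in all. The 7 with the next smallest limma adjusted p, from 0.116 to 0.164, were CDC20 (-0.64), NEK2 (0.76), CDCA3 (-0.72), CDC25C (-0.83), PTTG1 (-0.52), UBE2C (-0.69) and CDK1 (0.50). For NEK2, CDCA3 and CDK1, the difference of the treated A549 arrays from vehicle had the opposite sign in other probe sets, as given above. Without either estradiol array, 14 members were called, 6 higher and 8 lower, as were 17.3% or 17.6% of all genes.

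The vehicle comparisons turned on the vehicle arrays in the same way. With the HTB-182 vehicle array left out, so that vehicle was the A549 array alone, limma called 12 members for both estrogens averaged (16.2% of all genes), 6 for estradiol (8.31%), 13 for estradiol-BSA (15.9%), 12 for estradiol plus tamoxifen (13.5%) and 11 for estradiol-BSA plus tamoxifen (16.2%). With the A549 vehicle array left out, each of these counts was 0. The part of that array's overall departure in these counts was not tested.

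**Figure D5:**
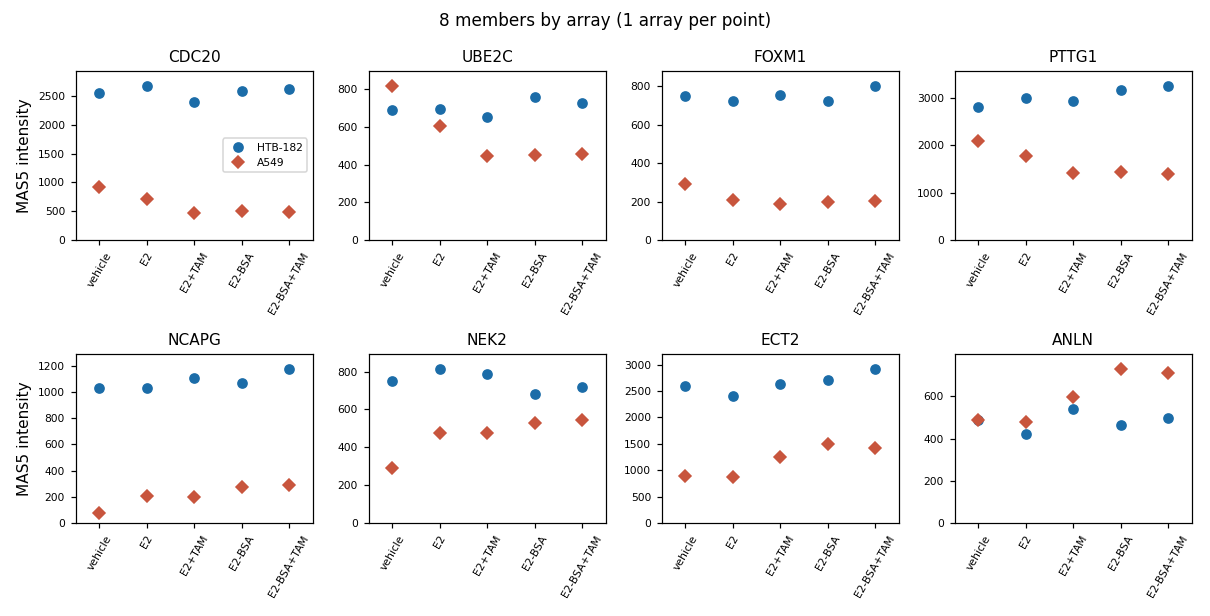
Intensity of 8 mitosis genes on each array, on linear axes from 0, by exposure (E2, estradiol; TAM, tamoxifen) and line, 1 array per point and so no error bar. In A549 the vehicle array is highest for CDC20, UBE2C, FOXM1 and PTTG1 and lowest for NCAPG and NEK2, and ECT2 and ANLN are highest with estradiol-BSA. These are the brightest probe sets, and another ECT2 probe set, not drawn, was lowest in A549 with estradiol-BSA, at 38.6. Another NEK2 probe set, also not drawn, was highest in A549 with vehicle, at 63.2. Another ANLN probe set was highest in A549 with estradiol-BSA plus tamoxifen, at 270.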

How the data were processed

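The authors deposited linear intensities for the 10 arrays in 1 table. MAS5 is named in the submitters' processing notes. Neither its version nor its scaling target is given in the sources used here. Array medians ran from 17.5 to 21.4. Of 54675 probe sets, 62 controls were left out, and 41091 with 1 gene in the platform annotation were used (1801 name several genes, 11721 none here). Symbols were checked through gene numbers against a RefSeq table, which held 41037 and required 0 changes.

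Values were analysed as log2(intensity + 16), and every fold change is on this scale, which understates the change of dim genes. Differences were fitted over all 12979 genes by limma 3.58.1 under R 4.3.3, with a variance trend on intensity, and p-values were adjusted by Benjamini and Hochberg's method (threshold 0.05). The additive model of line and exposure left 4 residual degrees of freedom. Its exposure term pairs arrays of the lines, and a response of 1 line alone adds to its spread. Models with a line by tamoxifen term and a further line by estrogen term left 3 and 2. Differences between single arrays of a line have no test. The code was tested on simulated data.

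The members and the gene lists were chosen with earlier results of these data known. Full values were given for CCNB1, CDK1, PLK1, AURKA, CDC20, TOP2A, FOXM1 and MKI67, for up to 8 members per direction of largest line difference that moved alike in all 5 pairs, and for up to 4 per direction in each exposure comparison. Other members and arrays were named after their values were seen. Other lists were named by up to 4 genes of largest line difference, with further genes named after their values were seen. Motif searches used the RefSeq promoter table. Alternatives were the pseudocount, the filter on low values, centring or quantile normalization, the mean of all probe sets, no intensity trend, array weights, other pairings and leaving out arrays. Replicate numbers in the sample table are all 1 and pair nothing.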

Additional observations from a re-analysis of the deposited data

Results flagged for a closer look

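Within the 5 arrays of a line, 80 sets of readings (40 genes in 2 lines) were checked for an array standing apart from the other 4, and 6 did, where chance alone gives about 4. Of the 6, 3 were in the A549 vehicle array: NCAPG at 74.5 and NEK2 at 291 were the lowest of their line, and FOXM1 at 292 the highest. Another NEK2 probe set was the highest of its line in that array, at 63.2. A pair was in the A549 estradiol array, with PLK1 at 73.4 and KIF11 at 690.3, each the highest of its line. In the HTB-182 vehicle array, CENPE at 416 was the lowest, against 449 to 455 in the other arrays of that line. The estrogen response of NCAPG differed between the lines by 1.48 on the log2 scale in a test of the difference itself (limma adjusted p = 0.000312), with the A549 vehicle array entering in full.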

How the results depend on the processing

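The line difference kept its direction for 33 of 40 genes with the same call under every alternative. The members' median was -0.99 with a pseudocount of 64, -0.85 with the mean of all probe sets, and between -1.15 and -1.12 with any 1 array left out, with 32 to 35 members lower and 1 to 2 higher. With arrays centred on their medians 1 member was higher. Leaving out 1 array, members called ran from 0 to 12 for any estrogen, 0 to 6 for estradiol, 0 to 13 for estradiol-BSA, 0 to 12 for estradiol plus tamoxifen, 0 to 11 for estradiol-BSA plus tamoxifen and 1 to 14 for the line by estrogen term; the counts above 0 in the first 5 came from leaving out the HTB-182 vehicle array. NCAPG stayed called for that term in all 17 alternatives that could be fitted. Directions that turned were those of CENPA in the line difference (-0.13 to 0.032 with 1 array left out, above 0 without any 1 of the 4 estradiol-BSA arrays) and of small exposure differences. With 1 array left out, PRC1 ran from -0.071 to 0.28, NCAPG from -0.055 to 1.37 with estradiol and from -0.025 to 1.40 with estradiol plus tamoxifen, and NEK2 with estradiol plus tamoxifen from -0.014 to 0.75. For PRC1, with estradiol, the sign turned without the HTB-182 vehicle or the A549 estradiol array, and for the others without the A549 vehicle array. With the mean of all probe sets CDK1 turned to -0.016 for estradiol-BSA, -0.068 for estradiol plus tamoxifen and -0.082 for estradiol-BSA plus tamoxifen. The cause was not tested. The number of arrays limits the precision, and the counts over the exposures cannot show a response of 1 line alone.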

Other observations

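Genes that govern the same cell cycle phases from outside the mitotic machinery were read from further lists, chosen with earlier results known. In the list of G2 arrest genes and p53 targets, 9 of 12 were higher in A549 and 2 lower, with a median of 0.77. Over all genes, 33.6% were called higher and 32% lower. PLK2 reached the level for testing in A549 alone, and without it 8 of 11 were higher. PLK2, a stress-responsive Polo-like kinase, averaged 17.8 ± 4.03 in HTB-182 against 1544 ± 149.8 in A549 (mean and SD over 5 arrays). CDKN1A, the CDK inhibitor p21, averaged 45.3 ± 10.8 and 837 ± 146, a 13.9-fold difference (limma adjusted p = 1.1e-09). TP53INP1 was 6.22-fold and ZMAT3 4.74-fold higher, and GADD45A, which acts in G2 arrest, 1.98-fold. The 2 lower genes were RPRM, 2.70-fold (93.0 in HTB-182 against 24.5 in A549), and CCNG1, 2.19-fold.

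G1/S and replication genes were lower in A549 for 23 of 28 and higher for 3, against 32% and 33.6% of all genes. Their median was -0.96, so the lower levels were not limited to mitosis genes. RFC4, a clamp loader subunit, was 7.38-fold lower, MCM2 of the replicative helicase 5.82-fold, CCNE2 5.17-fold and GINS2 5.06-fold. In the list of MuvB, DREAM and B-Myb genes, 10 of 13 were lower and 1 was higher, beside the same shares of all genes. The median of this list was -0.62. LIN54 reached the level for testing in HTB-182 alone, and without it 9 of 12 were lower, with a median of -0.75. LIN9 was 3.36-fold, MYBL2 (B-Myb) 2.87-fold, LIN52 2.77-fold and RB1 2.69-fold lower, and LIN37 was 1.81-fold higher. No gene of these 3 lists was called for the tamoxifen effect, and neither was any of the 12979 genes tested (0%). The other marker lists are small and stand beside the same 33.6% higher and 32% lower over all genes. Of the squamous markers, 1 of 6 was higher and 3 lower. CALML3, among the lower, reached the level for testing in HTB-182 alone, and without it 2 of 5 were lower. Of 5 blood and endothelial markers, 1 was higher (CD14) and 1 lower (LYZ), each reaching the level for testing in 1 line alone. Of 3 fibroblast markers, 2 were higher, COL1A1 at 20.6 in HTB-182 and 382 in A549.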
